A study of Mus musculus with 13 samples.

Results

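The genes described here are 40 genes of the cell division cycle, measured in the adrenal gland of mice before and after loss of Star. They are a named list, found by symbol in the deposited tables, and fall into 4 groups by role. The 8 licensing genes (Mcm2, Mcm3, Mcm4, Mcm5, Mcm6, Mcm7, Cdc6 and Cdt1) prepare replication origins, and the 5 fork and nucleotide genes (Gins2, Pcna, Rrm1, Rrm2 and Tyms) copy DNA or supply its precursors. The 7 genes of G1 and S control are Ccnd1, Ccnd2, Ccne1, Ccne2, Cdk2, Cdk4 and E2f1. The 20 mitotic genes are Mki67, Top2a, Cdk1, Ccna2, Ccnb1, Ccnb2, Foxm1, Birc5, Aurka, Aurkb, Plk1, Bub1, Bub1b, Cdc20, Ube2c, Kif11, Kif20a, Cenpe, Cenpf and Tpx2. All 40 are among the 14088 genes that the tables list for every group, and 39 are among the 14078 genes with a transcript model shared by all groups, which were tested. Bub1 has no such shared model and is given as values.

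A cell that enters the cycle first passes G1, where D-type cyclins with CDK4 inactivate the retinoblastoma protein and free the E2F factors, which switch on the genes of S phase. In G1 the proteins CDC6 and CDT1 load the MCM2 to MCM7 ring, the core of the replicative helicase, onto origins, a step called licensing. Mitotic genes come on later, in G2 and mitosis, under the MuvB complex with B-MYB and FOXM1, so their transcripts mark cells that are about to divide. In the adrenal cortex most cells are quiescent, and renewal starts near the capsule.

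Total RNA from adrenal glands of C57BL/6 mice was sequenced before TAM (5 libraries), 24 h after TAM (4 libraries) and 8 weeks after TAM (4 libraries), and TAM removes Star, whose product carries cholesterol into mitochondria for steroid synthesis. The labels name neither the driver of the TAM-inducible step nor the sex or age of the mice, and do not say whether each library is 1 animal, so the p-values measure the spread between these libraries, which may be technical. No library analysed here is from mice given TAM without the deletion, so TAM, elapsed time and loss of Star cannot be told apart. Levels are FPKM as deposited, a read count per transcript length and library total. Fold changes are log2 values from edgeR's quasi-likelihood test in 1 fit of all 13 libraries, and a gene is said to have risen or fallen where its Benjamini-Hochberg adjusted p over all genes was under 0.05.

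Listed reads ran from 17331673 to 27309429 per library. Star was at 3207 to 4239 FPKM before TAM and at 85.9 to 202 at 8 weeks. At 24 h it was at 17.4 FPKM in the library labelled replicate 3 and at 208 to 626 in the others. The library labelled 24 h replicate 3 stood apart: the mean of 10 markers of steroid cells of the cortex was −5.57 log2 relative to before TAM there, against −0.49 to 0.21 in the other 24 h libraries, and 10 medulla markers were at −5.70. These marker levels go against the labelled tissue. It also held Gata4 at 83.0 FPKM, Wt1 at 49.2 FPKM and Nr5a2 at 32.5 FPKM, genes named after their values were seen, against at most 6.81, 3.31 and 1.16 FPKM in the other 12 libraries. Whether it is adrenal tissue was not tested, and each later mention of 24 h replicate 3 means the library so labelled. The 24 h replicate 4 was low in medulla markers (−4.32) and red blood cell markers (−2.75) but not in cortex markers (−0.40). The main counts of called genes are therefore also given without replicate 3, and some without both. Before replicate 5 and 8-week replicate 3 were high in Alb, a gene named after its values were seen (978 and 13280.0 FPKM, at most 11.7 elsewhere).

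At 24 h 14 mitotic genes rose, a count that fell to 0 without 24 h replicates 3 and 4, while 1 licensing gene rose and 1 fell. Of the 39 genes tested, 17 rose and 3 fell at 24 h against before TAM, where 12.6% of all genes rose and 6.63% fell (19.2% in all). Of 19 mitotic genes 14 rose and 0 fell, with a median log2 fold change of 1.37. Those 14 became 6 without 24 h replicate 3 and 5 without replicate 4, and 5, 6, 8 and 4 without before replicates 1, 3, 4 and 5. Of all genes, 1774 rose with all libraries, 2341 without 24 h replicate 3 and 1439 without replicate 4. Without before replicates 1, 3, 4 and 5 that number was 1563, 1552, 1277 and 1245. The 17 and 3 of all 39 became 8 and 3 without replicate 3, and 0 and 4 without both. Of 8 licensing genes Cdt1 rose and Mcm2 fell, with a median of 0.36. The median over all genes was 0.03. At 8 weeks against before TAM, 3 of the 39 rose (Cdt1, Pcna and Ccne1) and 3 fell (Mcm2, Ccnd1 and Ccnd2), where 20.5% of all genes rose and 16.4% fell (36.9% in all). Without 24 h replicate 3, 3 of the 39 rose and 7 fell, where 24.3% of all genes rose and 23.4% fell. With no scaling factor in the fit 0 rose and 4 fell, where 2424 of 14078 genes rose and 3054 fell. At 8 weeks against 24 h, 0 of the 39 rose and 24 fell, where 10.2% of all genes rose and 10.6% fell (20.8% in all), and DESeq2 called 27 lower and 0 higher. That count of 24 was 18 without 24 h replicate 3, 11 without replicate 4 and 2 without both. It was 13, 7, 9 and 6 without 8-week replicates 1, 2, 3 and 4. Of all genes, 1495 fell with all libraries, and 2495, 1353 and 1797 without 24 h replicate 3, replicate 4 and both. Without 8-week replicates 1, 2, 3 and 4 that number was 829, 840, 1094 and 978. The first pair of comparisons shares the before libraries, and the last shares its libraries with both. In bulk RNA, fewer cells of a type and less RNA per cell cannot be told apart.

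The results turn on licensing and mitotic genes, so letters from their promoters are shown first. RefSeq promoters (GRCm38.p6, 250 bases before to 50 bases after the start) were found for 30 of the 40 genes. The cell cycle homology region, or CHR, is the element bound by MuvB, and it was searched as TTTGAA or TTCGAA on both strands, the latter being the same on both. It was present in 12 of 15 mitotic promoters, 2 of 7 licensing promoters, 0 of 4 fork and nucleotide promoters and 0 of 4 promoters of G1 and S control, against 5854 of 27025 genes in the table (21.7%). The capitals below mark a CHR match in mitotic genes and in Mcm2, each window running 5′ to 3′ on the gene's strand. TTCAAA is the same match read on the other strand.
Cdk1, chr10:69352910-69352939, minus strand: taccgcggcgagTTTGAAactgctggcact
Plk1, chr7:122159453-122159482, plus strand: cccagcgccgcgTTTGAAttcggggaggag
Ccnb2, chr9:70421533-70421562, minus strand: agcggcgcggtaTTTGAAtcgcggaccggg
Cenpf, chr1:189688067-189688096, minus strand: ggcggcgggcagTTTGAAtcgctcgtgctg
Cdc20, chr4:118437344-118437373, minus strand: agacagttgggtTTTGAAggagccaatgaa
Mki67, chr7:135716460-135716489, minus strand: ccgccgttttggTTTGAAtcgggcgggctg
Ube2c, chr2:164769888-164769917, plus strand: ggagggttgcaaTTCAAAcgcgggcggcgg
Mcm2, chr6:88898833-88898862, minus strand: agggctcagcctTTTGAAagctgtgggcgg

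The E2F core was searched as TTCCCGC, as TTGGCGC, as TTCGCGC or as TTGCCGC on both strands, where matches on opposite strands can overlap. It was present in 6 of 7 licensing promoters (all but Mcm2), 3 of 15 mitotic promoters (Mki67, Cdk1 and Ccnb1), 2 of 4 fork and nucleotide promoters and 1 of 4 promoters of G1 and S control, against 2936 of 27025 genes (10.9%). The capitals below mark E2F core matches in licensing genes.
Mcm3, chr1:20820276-20820305, minus strand: taaacttccgtgGCGGGAAaacttgggaag
Mcm5, chr8:75109345-75109374, plus strand: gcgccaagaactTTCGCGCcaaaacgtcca
Mcm6, chr1:128359734-128359763, minus strand: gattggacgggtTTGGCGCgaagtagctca
Cdc6, chr11:98908001-98908030, plus strand: ggccggtggagaGCGGGAAatcgcctgggg
Cdt1, chr8:122568021-122568050, plus strand: tgcgcggaatccGCGGGAActacctttttg
The CCAAT box was present in 14 of 15 mitotic promoters, 5 of 7 licensing promoters and 41.1% of genes in the table. In a shorter window, 100 bases before to 50 after the start, the CHR was in 12 of 15 mitotic and 1 of 7 licensing promoters (9.87% of genes) and the E2F core in 1 of 15 and 4 of 7 (6.49% of genes). These are matches of letters only, and no occupancy was measured.

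**Figure D1:**
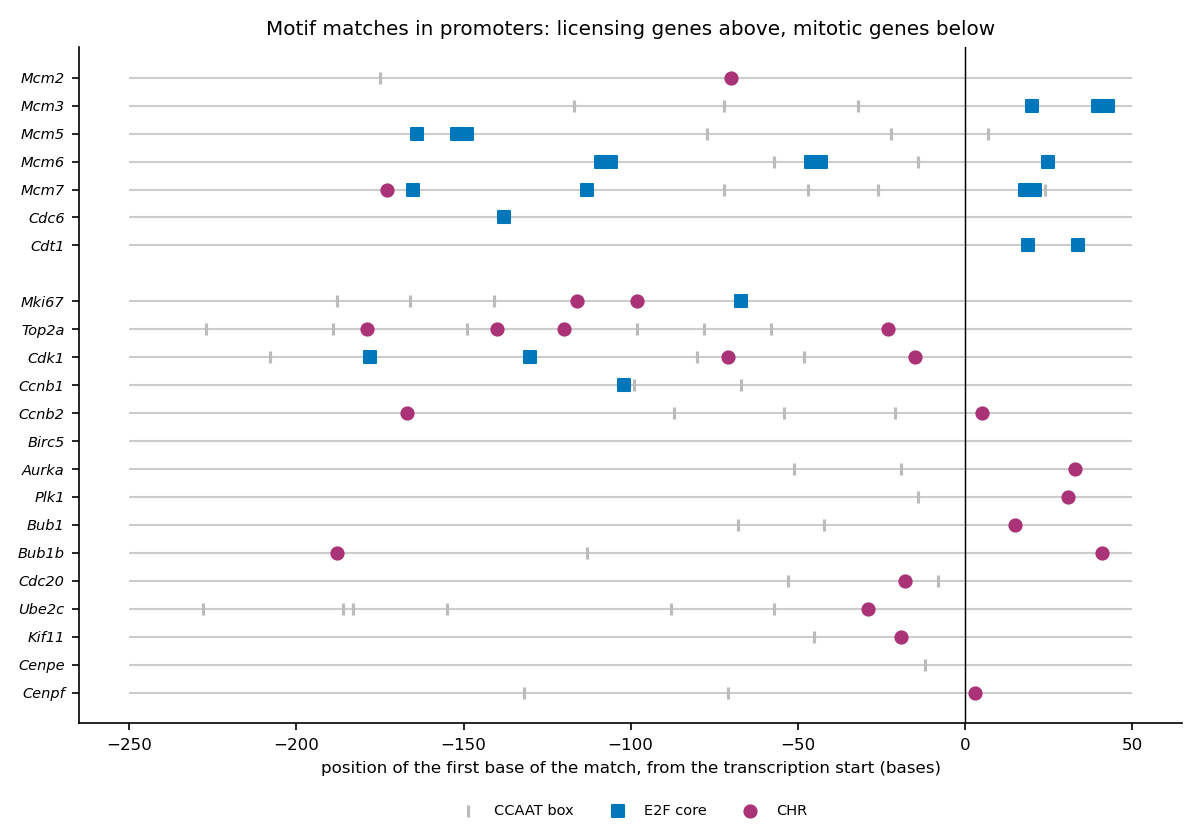
Matches of the CHR (circles), the E2F core (squares) and the CCAAT box (ticks) in RefSeq promoters of 7 licensing genes (above) and 15 mitotic genes (below), by distance in bases from the transcription start. Circles lie on 12 of the 15 mitotic lines and squares on 6 of the 7 licensing lines.

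Among licensing genes, Mcm2 fell at both times and Cdt1 rose at both. Mcm2, on chromosome 6 from 88883474 to 88898780 of mm10 (minus strand), encodes a subunit of the helicase ring. Before TAM Mcm2 was at 12.3, 16.4, 10.5, 12.7 and 11.1 FPKM, at 24 h at 5.28, 6.89, 10.3 and 7.13 FPKM and at 8 weeks at 3.34, 3.74, 3.04 and 3.35 FPKM. The 3 groups did not overlap. Every library at 24 h was below every library before TAM, as for 8.01% of all genes. Every library at 8 weeks was lower still, as 13.3% of all genes were against 24 h. The log2 fold change was −0.75 at 24 h (SE 0.17, adjusted p = 0.0091), −1.77 at 8 weeks (SE 0.18, adjusted p = 2.0e-05) and −1.02 between 8 weeks and 24 h (SE 0.18, adjusted p = 0.0048). Without 24 h replicate 3 the fall at 24 h was −0.88 (adjusted p = 0.0017). Mcm2 passed the threshold in the same direction in all 3 comparisons under every alternative fit that was run.

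None of the other ring subunits was called at 24 h. The level of Mcm6 was 17.9, 18.2, 11.9, 15.6 and 13.4 FPKM before TAM, 10.8, 10.8, 39.9 and 17.4 FPKM at 24 h and 10.7, 8.91, 7.62 and 7.57 FPKM at 8 weeks. The 24 h replicate 3 was above every other library, and replicates 1 and 2 were below every library before TAM. Mcm7 stood at 13.6, 15, 10.8, 12.99 and 11.2 FPKM in the libraries before TAM, at 10.02, 11.1, 31.9 and 14.2 FPKM at 24 h and at 8.40, 8.69, 7.23 and 9.31 FPKM at 8 weeks. Before TAM Mcm5 was at 3.88, 5.37, 3.44, 3.49 and 3.25 FPKM, at 24 h at 2.804, 3.70, 8.49 and 4.95 FPKM and at 8 weeks at 3.18, 2.64, 1.76 and 1.93 FPKM. Replicate 3 was the highest 24 h library for 7 of the 8 licensing genes, and it lay above every library before TAM for 7 of them (43.2% of all genes). The log2 fold changes of Mcm3, Mcm4, Mcm5, Mcm6 and Mcm7 at 24 h ran from 0.10 (Mcm4) to 0.40 (Mcm7) with all libraries, and from −0.29 (Mcm4) to 0.07 (Mcm5) without replicate 3, with none called in either fit.

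At 8 weeks 5 of the 6 ring subunits were at lower levels in all 4 libraries than in any before TAM. Mcm2, Mcm3, Mcm5, Mcm6 and Mcm7 were those 5, and Mcm4 overlapped. Of all genes 26.5% were lower in the same way. Only Mcm2 of the 8 licensing genes was called lower with all libraries in the fit, where 16.4% of all genes fell. Without 24 h replicate 3, 5 were (Mcm2, Mcm3, Mcm5, Mcm6 and Mcm7, log2 −1.80, −0.51, −0.61, −0.72 and −0.50), where 24.3% of all genes rose and 23.4% fell. The same 5 log2 values with all libraries were −1.77, −0.47, −0.58, −0.69 and −0.46, so the values moved little while their errors shrank (Mcm6 from SE 0.32 to 0.19). The fit of the before and 8-week libraries alone also called 5. At 8 weeks against 24 h, Mcm2, Mcm5, Mcm6 and Mcm7 fell (log2 −1.02, −0.95, −1.04 and −0.87). The calls of Mcm5 and Mcm6 were lost without 24 h replicate 3 (adjusted p = 0.065 and 0.058). Those of Mcm5, Mcm6 and Mcm7 were each lost without 24 h replicate 4, without before replicate 1 or 3, and without 8-week replicate 2, 3 or 4, with adjusted p of at most 0.10, and those of Mcm6 and Mcm7 also without 8-week replicate 1 (0.062 and 0.089).

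The share of Mcm2 in the summed FPKM of Mcm2 to Mcm7, a measure chosen after the values were seen, needs no scaling between libraries. It was 18.6%, 21.9%, 20.8%, 20.3% and 20.4% in the libraries before TAM, 12.8%, 14.99%, 8.60% and 11.4% at 24 h and 8.58%, 10.2%, 9.87% and 9.76% at 8 weeks. The means were 20.4 ± 1.21% (SD, n = 5), 11.96 ± 2.68% (n = 4; 13.1 ± 1.80% without replicate 3, n = 3) and 9.60 ± 0.70% (n = 4). No library after TAM reached the range from before it.

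CDT1 and CDC6 are the loaders of the ring. The level of Cdt1 was 2.34, 3.23, 1.66, 2.48 and 1.37 FPKM before TAM, 3.37, 3.02, 5.24 and 6.95 FPKM at 24 h and 3.33, 4.22, 4.29 and 3.60 FPKM at 8 weeks. The log2 fold change of Cdt1 was 1.10 at 24 h (SE 0.31, adjusted p = 0.024) and 0.94 at 8 weeks (SE 0.31, adjusted p = 0.028). All 8-week libraries were above all from before, as for 18.1% of all genes, whereas 24 h replicate 2 was below before replicate 2. The rise at 24 h held without replicate 3 (1.11, adjusted p = 0.025) and was not called without 24 h replicate 4, before replicate 3 or before replicate 5 (adjusted p = 0.076, 0.053 and 0.057). Without 24 h replicates 3 and 4 together it was 0.58 (adjusted p = 0.18). That at 8 weeks was lost without 8-week replicates 2 or 3, before replicates 3, 4 or 5, or a scaling factor, with adjusted p of at most 0.076. Cdc6 was low throughout, at 0.20 to 0.82 FPKM before TAM and 0.31 to 0.64 at 8 weeks, and at 24 h it stood at 1.55 FPKM in replicate 3 and 0.42 to 0.53 in the others. Its log2 value at 24 h was 0.84 (SE 0.46) with replicate 3 and 0.29 (SE 0.41) without it, not called in either.

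**Figure D2:**
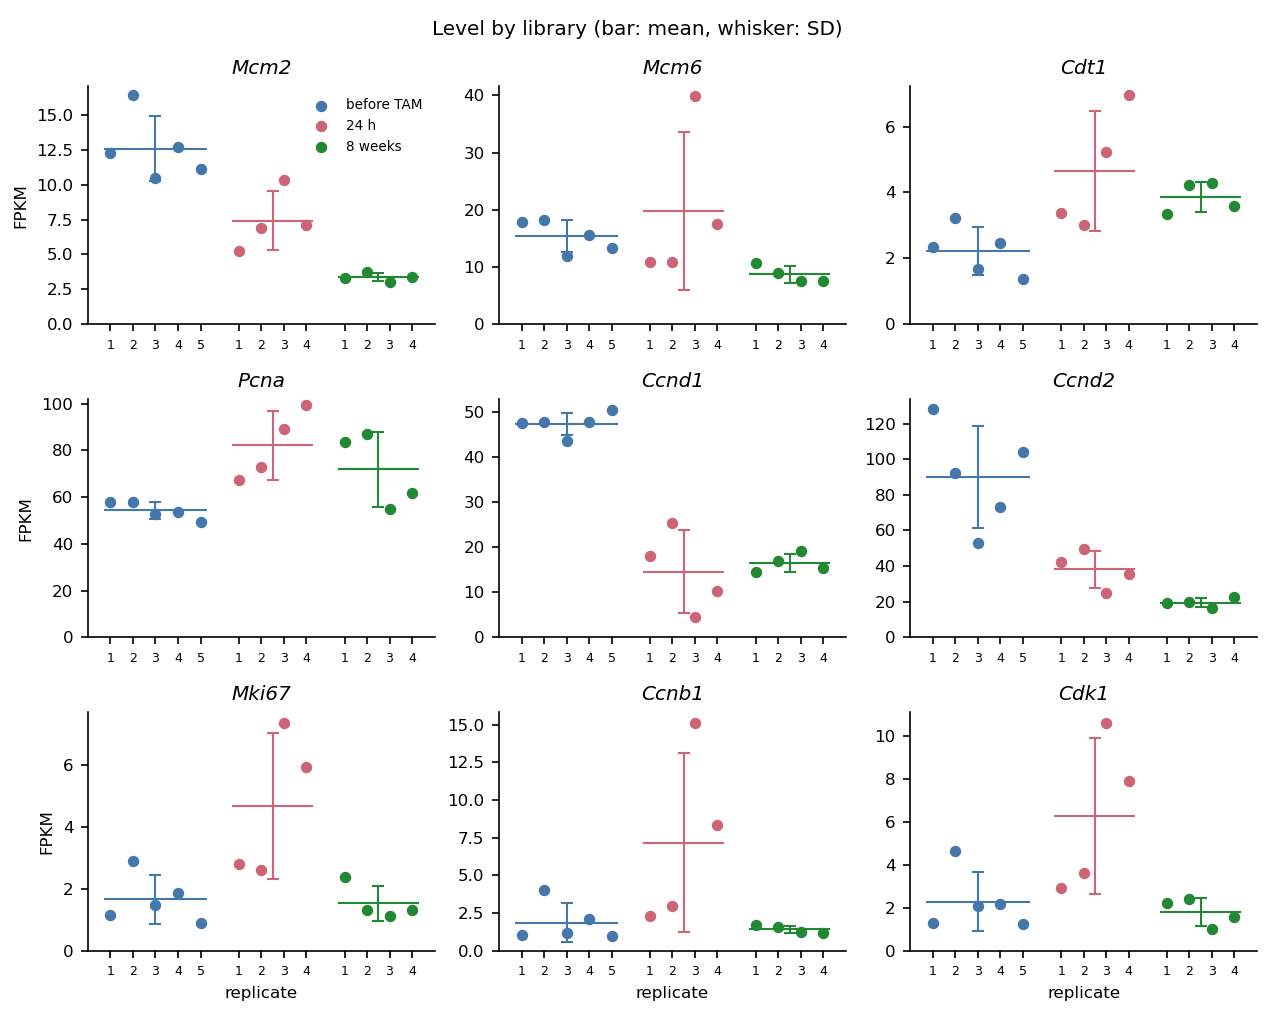
Deposited FPKM (vertical axis) of 9 genes in each library, by group and replicate, with the group mean as a bar and SD as a whisker. Mcm2 and Ccnd1 before TAM lie above all later libraries, Mcm6 has 1 high library at 24 h (39.9 FPKM), and the mitotic genes Mki67, Ccnb1 and Cdk1 are highest in 24 h replicates 3 and 4.

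Of the fork and nucleotide genes, Pcna rose at both times. PCNA is the sliding clamp that holds polymerases on DNA and also serves in DNA repair. Pcna stood at 57.8, 57.7, 52.7, 53.7 and 49.5 FPKM in the libraries before TAM, at 67.5, 72.7, 88.9 and 99.4 FPKM at 24 h and at 83.6, 87.2, 54.8 and 61.8 FPKM at 8 weeks. Every 24 h library was above every library before TAM, as for 9.75% of all genes. At 8 weeks only replicate 3 was within the earlier range. The log2 fold change was 0.62 at 24 h (SE 0.15, adjusted p = 0.011; 0.65 and 0.011 without replicate 3) and 0.53 at 8 weeks (SE 0.15, adjusted p = 0.015). The call at 8 weeks was lost without 8-week replicate 1 or 2, before replicate 5 or a scaling factor (adjusted p from 0.051 to 0.053), and that at 24 h without replicates 3 and 4 together (0.41, adjusted p = 0.062). Gins2, a subunit of the GINS complex that activates the helicase, was called at 24 h. Before TAM Gins2 was at 2.65, 3.62, 2.55, 2.25 and 2.03 FPKM, at 24 h at 2.47, 4.15, 7.21 and 6.58 FPKM and at 8 weeks at 2.26, 2.33, 2.24 and 2.11 FPKM. Its log2 fold change was 0.98 at 24 h (SE 0.31, adjusted p = 0.041) and −1.08 from 24 h to 8 weeks (SE 0.33, adjusted p = 0.037), and the rise was not called without replicate 3 (0.85, adjusted p = 0.063). Leaving out any 1 library but before replicate 2 or 24 h replicates 1 or 2 also ended that call (adjusted p at most 0.11), and the fall was lost without 24 h replicate 4 or any 1 of the 8-week libraries (at most 0.081). Rrm1 and Rrm2, the subunits of ribonucleotide reductase, and Tyms, thymidylate synthase, were called in no comparison. Their log2 values at 24 h were 0.51, 0.47 and 0.30, and without replicate 3 they were 0.21, 0.32 and 0.13. Rrm1 stood at 25.2 FPKM in that replicate and at 8.81 to 12.8 FPKM in the libraries before TAM.

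In G1 and S control, both D-type cyclins fell and cyclin E1 rose. Ccnd1 encodes cyclin D1, partner of CDK4. The level of Ccnd1 was 47.5, 47.7, 43.6, 47.7 and 50.5 FPKM before TAM, 18.1, 25.4, 4.43 and 10.3 FPKM at 24 h and 14.5, 16.9, 19.2 and 15.4 FPKM at 8 weeks. The before libraries all lay above the later ones. Of all genes 8.01% were lower in this way at 24 h and 26.5% at 8 weeks. The highest later library of Ccnd1 was 24 h replicate 2, and 24 h replicate 3 was the lowest. The log2 fold change was −1.66 at 24 h (SE 0.38, adjusted p = 0.0085; −1.33 and 0.0011 without replicate 3) and −1.38 at 8 weeks (SE 0.37, adjusted p = 0.012; −1.41 and 0.00017 without replicate 3). From 24 h to 8 weeks it was not called, with a log2 value of 0.28 (SE 0.38, adjusted p = 0.62) and of −0.08 without replicate 3. Ccnd2 stood at 128, 92.3, 52.9, 73.4 and 104 FPKM in the libraries before TAM, at 42.5, 49.4, 25.1 and 35.4 FPKM at 24 h and at 19.4, 19.8, 16.3 and 22.5 FPKM at 8 weeks. Cyclin D2 fell by 1.21 on the log2 scale at 24 h (SE 0.26, adjusted p = 0.0062) and by 2.07 at 8 weeks (SE 0.27, adjusted p = 9.8e-05). All 3 of its groups were apart, and 13.3% of all genes were likewise lower at 8 weeks than at 24 h. Its further fall from 24 h to 8 weeks, −0.87 (SE 0.27, adjusted p = 0.037), was −1.10 (adjusted p = 0.0055) without 24 h replicate 3 and was not called without any other 1 library of those groups (adjusted p at most 0.093). Both falls against before TAM held in every alternative run for both cyclins.

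Cyclin E1, which with CDK2 starts S phase, was at a lower level than the D-type cyclins in every library. Before TAM Ccne1 was at 1.94, 2.81, 1.13, 1.04 and 1.46 FPKM, at 24 h at 3.33, 2.21, 1.88 and 2.45 FPKM and at 8 weeks at 3.41, 3.81, 2.15 and 2.55 FPKM. Its log2 fold change was 0.95 at 8 weeks (SE 0.32, adjusted p = 0.032) and 0.59 at 24 h (SE 0.32, adjusted p = 0.22), and before replicate 2 overlapped both later groups. The call at 8 weeks was lost without 8-week replicates 1 or 2, before replicates 3, 4 or 5, or a scaling factor (adjusted p from 0.060 to 0.088). Cdk2, Cdk4 and Ccne2 were called in no comparison, with log2 values from −0.10 to 0.45 against before TAM. Ccne2 has a second model listed only at 24 h, and its log2 value at 24 h was 0.29 on the shared model and 0.80 with all listed models, not called in either. Cdk4 stood at 133 FPKM in 24 h replicate 3 and at 54.6 to 86.3 FPKM in all other libraries. E2f1, the factor that activates S-phase genes, was listed under 1 model before TAM and at 8 weeks and under 2 at 24 h, and the shared model was at 0.93 FPKM in 24 h replicate 3 against 2.55 to 4.35 in the other 24 h libraries. The level of E2f1 was 5.03, 5.72, 2.83, 4.27 and 4.01 FPKM before TAM, 4.74, 4.61, 3.31 and 3.26 FPKM at 24 h and 3.68, 4.27, 3.40 and 4.05 FPKM at 8 weeks. These values sum both models, and all groups overlapped. On the shared model the log2 value at 24 h was −0.50 (SE 0.37, adjusted p = 0.39), and on all listed models it was −0.10 (SE 0.21, adjusted p = 0.78).

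Of the mitotic genes, 14 of 19 rose at 24 h with all libraries in the fit and 6 without 24 h replicate 3, and 0 were called against before TAM at 8 weeks. All 19 tested had a positive log2 fold change at 24 h, from 1.07 (Bub1b) to 1.95 (Ccnb1), and 14 rose: Mki67, Top2a, Cdk1, Ccna2, Ccnb1, Ccnb2, Foxm1, Birc5, Aurkb, Plk1, Ube2c, Kif11, Cenpe and Tpx2. Aurka, Bub1b, Cdc20, Kif20a and Cenpf did not pass, with log2 values from 1.07 to 1.26 and adjusted p from 0.057 to 0.12. The 24 h libraries were not alike. On the models shared by all groups, replicates 3 and 4 were each above every library before TAM for 19 of the 19 tested genes, where 43.2% and 31.2% of all genes were. Replicate 2 was above them for 5 (Ccna2, Birc5, Plk1, Ube2c and Cenpe) and replicate 1 for Cenpe alone, where 27.9% and 27.1% of all genes were. Replicates 1 and 2 were below the lowest library before TAM for 0 of the 19, where 32.3% and 32.5% of all genes were.

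Cenpe encodes the kinetochore motor that aligns chromosomes. Cenpe stood at 0.365, 0.692, 0.372, 0.510 and 0.365 FPKM in the libraries before TAM, at 0.809, 0.695, 2.69 and 1.47 FPKM at 24 h and at 0.532, 0.405, 0.286 and 0.379 FPKM at 8 weeks. It was the only tested mitotic gene whose 24 h libraries all exceeded those before TAM on shared models, as 9.75% of all genes did, by a small margin between 24 h replicate 2 and before replicate 2. Tpx2 has 2 models listed only at 24 h, and on its 2 shared models the groups overlapped. Cenpe had a log2 fold change of 1.62 (SE 0.37, adjusted p = 0.0087; 1.21 and 0.014 without replicate 3). Mki67 encodes the proliferation marker Ki-67. Before TAM Mki67 was at 1.14, 2.90, 1.49, 1.88 and 0.884 FPKM, at 24 h at 2.79, 2.60, 7.38 and 5.93 FPKM and at 8 weeks at 2.37, 1.33, 1.13 and 1.32 FPKM. Before replicate 2 was higher than 24 h replicates 1 and 2. Mki67 had a log2 fold change of 1.51 at 24 h (SE 0.38, adjusted p = 0.015; 1.29 and 0.029 without replicate 3).

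Ube2c, Plk1, Birc5 and Ccna2 completed the 6 genes of lowest p. UBE2C passes ubiquitin to the anaphase-promoting complex, which destroys mitotic cyclins. The level of Ube2c was 2.06, 5.02, 2.33, 3.10 and 1.46 FPKM before TAM, 4.20, 5.63, 15.2 and 9.47 FPKM at 24 h and 2.89, 2.50, 2.35 and 2.29 FPKM at 8 weeks. PLK1 is a kinase of mitotic entry and spindle assembly. Plk1 stood at 0.961, 2.20, 1.00, 1.27 and 0.681 FPKM in the libraries before TAM, at 1.62, 2.36, 6.83 and 3.96 FPKM at 24 h and at 1.16, 0.869, 0.786 and 0.824 FPKM at 8 weeks. Their log2 fold changes at 24 h were 1.63 (SE 0.40, adjusted p = 0.013) and 1.60 (SE 0.41, adjusted p = 0.016). BIRC5, or survivin, belongs with Aurora B to the chromosomal passenger complex. Before TAM Birc5 was at 1.49, 4.67, 2.44, 2.85 and 1.55 FPKM, at 24 h at 3.67, 5.59, 18.7 and 10.8 FPKM and at 8 weeks at 4.20, 2.98, 1.82 and 2.07 FPKM. Ccna2 encodes cyclin A2, which acts from S phase to early mitosis. The level of Ccna2 was 1.72, 5.33, 2.64, 3.61 and 1.57 FPKM before TAM, 4.35, 5.35, 14.7 and 8.60 FPKM at 24 h and 3.69, 2.61, 1.66 and 2.54 FPKM at 8 weeks. Their log2 fold changes were 1.59 (SE 0.43, adjusted p = 0.020) and 1.48 (SE 0.41, adjusted p = 0.023). For each of the 4, replicate 3 was the highest 24 h library and replicate 4 was next. Leaving out any 1 library kept the calls of Cenpe, Mki67, Ube2c and Plk1 at 24 h (adjusted p at most 0.025, 0.048, 0.031 and 0.041). Birc5 was lost without before replicate 5 (0.052), and Ccna2 without 24 h replicate 4, before replicate 1 or before replicate 5 (0.052, 0.050 and 0.054).

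The kinase gene Cdk1 and its partners gave the same order of libraries. Cdk1 stood at 1.30, 4.63, 2.08, 2.16 and 1.22 FPKM in the libraries before TAM, at 2.93, 3.62, 10.6 and 7.89 FPKM at 24 h and at 2.22, 2.42, 1.00 and 1.56 FPKM at 8 weeks. Before TAM Ccnb1 was at 1.04, 4.02, 1.16, 2.11 and 0.940 FPKM, at 24 h at 2.29, 2.94, 15.1 and 8.31 FPKM and at 8 weeks at 1.69, 1.55, 1.22 and 1.19 FPKM. Ccnb1 encodes cyclin B1, whose binding to CDK1 drives entry into mitosis, and it had the largest log2 fold change of the group (1.95, SE 0.55, adjusted p = 0.025). In 24 h replicates 1 and 2 it was below before replicate 2. TOP2A untangles sister DNA before they part. The level of Top2a was 1.62, 5.42, 2.14, 3.03 and 1.77 FPKM before TAM, 4.07, 4.17, 12.98 and 5.90 FPKM at 24 h and 2.73, 2.00, 1.57 and 1.90 FPKM at 8 weeks. Cdk1 and Top2a had log2 fold changes of 1.47 (SE 0.45, adjusted p = 0.037) and 1.28 (SE 0.39, adjusted p = 0.036). Neither was called without replicate 3, at 1.19 (adjusted p = 0.073) and 0.85 (adjusted p = 0.089).

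FOXM1 is the factor that drives many of these genes. Foxm1 stood at 0.961, 2.60, 1.15, 1.37 and 0.876 FPKM in the libraries before TAM, at 1.62, 2.06, 4.09 and 4.37 FPKM at 24 h and at 0.720, 0.916, 0.940 and 1.14 FPKM at 8 weeks. Its highest 24 h library was replicate 4, as for 3 of the 20 mitotic genes, and its log2 fold change was 1.16 at 24 h (SE 0.37, adjusted p = 0.046; 1.06 and 0.066 without replicate 3). KIF20A and CENP-F serve at the late spindle and the kinetochore. Before TAM Kif20a was at 1.01, 3.79, 1.39, 1.81 and 0.642 FPKM, at 24 h at 1.84, 2.73, 6.36 and 4.55 FPKM and at 8 weeks at 0.694, 1.26, 0.640 and 0.677 FPKM. The level of Cenpf was 0.310, 0.8288, 0.267, 0.646 and 0.246 FPKM before TAM, 0.629, 0.538, 2.37 and 0.901 FPKM at 24 h and 0.244, 0.243, 0.186 and 0.288 FPKM at 8 weeks. Neither passed at 24 h, and both fell from 24 h to 8 weeks, by 2.13 (SE 0.52, adjusted p = 0.017) and 2.06 (SE 0.50, adjusted p = 0.016) on the log2 scale. Bub1, a spindle checkpoint kinase gene, was listed under different transcript models at 24 h and in the other groups. Bub1 stood at 0.0843, 0.693, 0.123, 0.328 and 0.275 FPKM in the libraries before TAM, at 0.721, 0.823, 2.31 and 0.746 FPKM at 24 h and at 0.217, 0.109, 0.263 and 0.215 FPKM at 8 weeks. With all listed models summed its log2 value was 1.92 at 24 h (SE 0.57, adjusted p = 0.031) and 1.42 without replicate 3 (adjusted p = 0.067), a comparison across models.

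Without 24 h replicate 3, 8 of the 39 genes rose and 3 fell at 24 h, where 16.6% of all genes rose and 11.8% fell. Of the mitotic genes 6 rose, Mki67, Ccna2, Birc5, Plk1, Ube2c and Cenpe, and the median log2 value over all 19 was 1.14, with 19 of 19 positive. Without replicates 3 and 4 together 0 mitotic genes were called by edgeR (2 at an unadjusted p under 0.05), where 12.6% of all genes rose and 8.38% fell. The median over the 19 was 0.57, against −0.004 over all genes, and 19 of 19 were positive. All 19 were read in the same libraries, so their signs are not separate evidence. The mitotic means of 24 h replicates 1 and 2 (0.51 and 0.78) were below that of before replicate 2 (0.97). The 4 genes called lower at 24 h without replicates 3 and 4 were Mcm2, Mcm4, Ccnd1 and Ccnd2. Without before replicate 2 the mitotic count was 18, where 1409 of 14075 genes rose. Before replicate 2 was the highest of its group for 19 of 20 mitotic genes and 8 of 8 licensing genes.

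**Figure D3:**
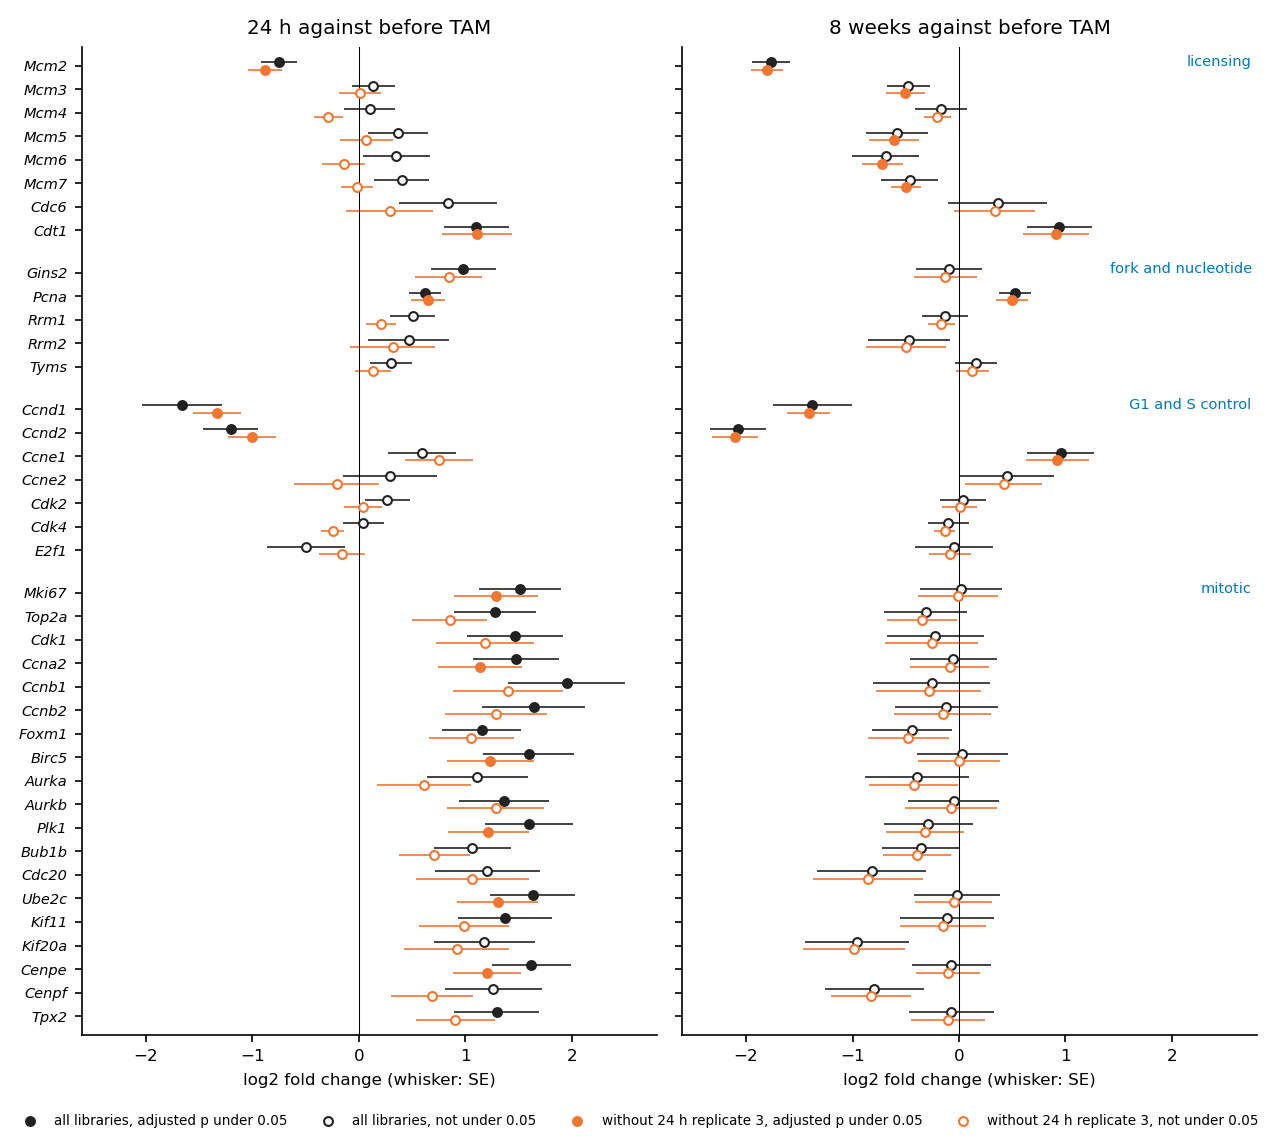
Log2 fold change against before TAM (horizontal axis, whisker SE) at 24 h (left) and 8 weeks (right) of the 39 tested genes, with all libraries (black) and without 24 h replicate 3 (orange); filled points had an adjusted p under 0.05. At 24 h 14 mitotic points are filled in black and 6 in orange, and at 8 weeks 0 are filled in either colour.

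At 8 weeks 0 of 19 mitotic genes were called against before TAM by edgeR, where 36.9% of all genes were, and 0 by DESeq2. At an unadjusted p under 0.05 there were 0 by edgeR and 1 by DESeq2. The median log2 value was −0.22, from −0.95 (Kif20a, SE 0.49, adjusted p = 0.14) to 0.03 (Birc5, SE 0.43, adjusted p = 0.96). No 8-week library was above the highest library before TAM for any of the 20, where 26.2% to 35.5% of all genes were. That highest library was before replicate 2 for 19 of the 20. All 8-week libraries were below all before TAM for Bub1b alone (2.08 to 2.42 FPKM against 2.43 to 4.86). Of all genes 26.5% were lower in this way. Against 24 h, 18 of 19 fell, with a median of −1.60 and the exception of Aurka (−1.51, SE 0.52, adjusted p = 0.054). Without 24 h replicate 3, 14 fell, with a median of −1.35, where 12.8% of all genes rose and 17.7% fell. Without replicate 4 the count was 10. Without replicates 3 and 4 together it was 0 (median −0.84, 7 at an unadjusted p under 0.05, where 12.8% of all genes fell). Without 8-week replicates 1, 2, 3 or 4 it was 11, 6, 8 and 5. Of all genes, 829, 840, 1094 and 978 fell in those last fits, against 1495 with all libraries.

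The mean log2 level of each group, relative to before TAM, put both groups beside each other library by library. The mitotic mean was −0.48, 0.97, −0.11, 0.29 and −0.67 before TAM, 0.51, 0.78, 2.24 and 1.85 at 24 h, and 0.07, −0.17, −0.29 and −0.28 at 8 weeks. The licensing mean was 0.09, 0.43, −0.25, 0.04 and −0.31 before TAM, −0.26, −0.14, 0.97 and 0.37 at 24 h, and −0.20, −0.28, −0.39 and −0.46 at 8 weeks. In 24 h replicates 1 and 2 the licensing mean was below 0 while the mitotic mean was above it. Of the 8 licensing genes, 6 in replicate 1 and 3 in replicate 2, Mcm2 among them, were below every library before TAM. So were 32.3% and 32.5% of all genes. The licensing mean without Mcm2 was not computed. Both means of replicates 1 and 2 lay within the range before TAM. In replicates 3 and 4 both means were above 0, and only the licensing mean of replicate 4 lay within that range.

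The difference, mitotic minus licensing, was −0.57, 0.54, 0.14, 0.25 and −0.37 before TAM, 0.77, 0.92, 1.27 and 1.48 at 24 h, and 0.28, 0.12, 0.10 and 0.19 at 8 weeks. All 4 libraries at 24 h were above every library of the other groups. The mean at 24 h was 1.11 ± 0.32 (SD, n = 4) with all libraries, 1.05 ± 0.37 without replicate 3 (n = 3) and 0.84 without replicates 3 and 4. At 8 weeks it was 0.17 ± 0.08 (n = 4), and every 8-week library was within the range before TAM. The mean of the licensing group alone at 24 h went from 0.24 ± 0.56 to −0.01 ± 0.34 when replicate 3 was left out, and that of the mitotic group from 1.34 ± 0.83 to 1.04 ± 0.71. These are descriptions, with no test over the genes.

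**Figure D4:**
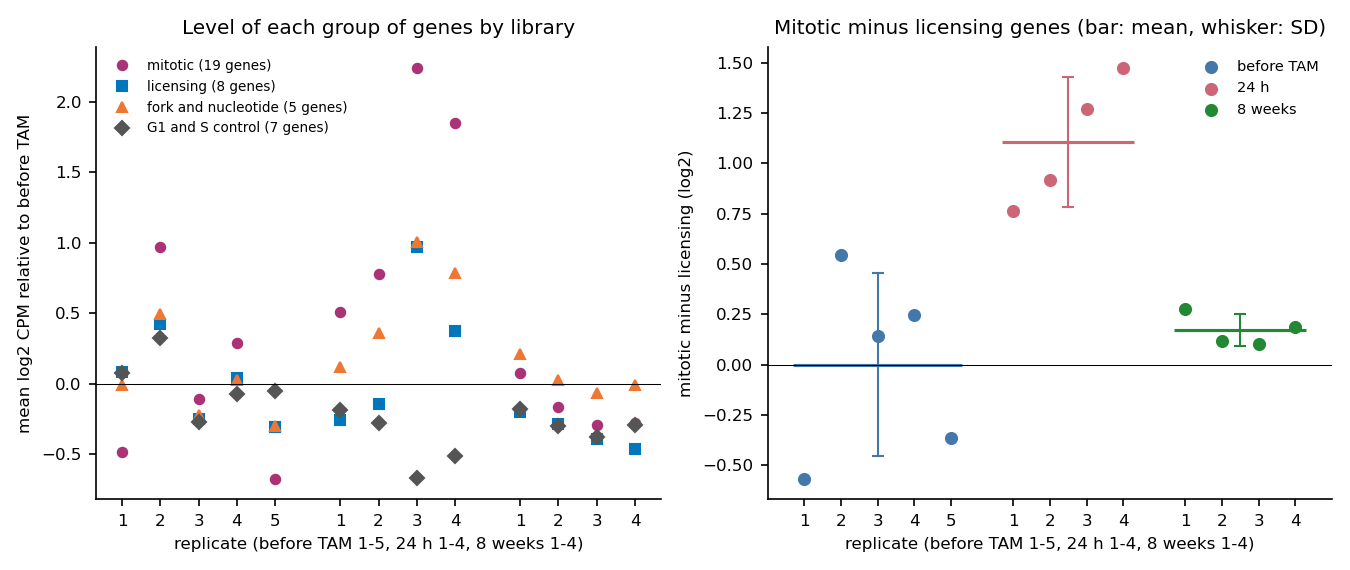
Left, mean log2 CPM of each group of genes relative to its mean before TAM, by library; right, the mitotic minus the licensing mean, with the group mean as a bar and SD as a whisker. The 4 libraries at 24 h (0.77 to 1.48) lie above all libraries before TAM (up to 0.54) and at 8 weeks (up to 0.28).

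Other genes of the cycle, from lists that hold none of the 40, were read in the same fit. Of 40 further mitotic genes 20 rose at 24 h (10 without replicate 3), with a median log2 value of 1.36. Of all genes 12.6% rose (16.6% without replicate 3). From 24 h to 8 weeks 19 of these 40 fell (15 without replicate 3), where 10.6% of all genes fell (17.7%). Those of lowest p at 24 h were Cdc25b, the phosphatase that activates CDK1 (log2 1.19, SE 0.20, adjusted p = 0.0012), the centromeric histone gene Cenpa (1.72, SE 0.34), the checkpoint kinase gene Ttk (1.97, SE 0.47) and the kinesin gene Kif4 (1.77, SE 0.45). Cdc25b and Cenpa were the 2 still higher at 8 weeks (1.35 and 0.99), where 0 fell with all libraries and 1 without replicate 3. Of 40 further replication genes 3 rose at 24 h, Dbf4, Chaf1b and Tk1 (2 rose and 4 fell without replicate 3), with a median of 0.27. Without replicate 3, 16.6% of all genes rose and 11.8% fell. At 8 weeks 3 of the 40 replication genes rose and 7 fell, where 20.5% of all genes rose and 16.4% fell. Without replicate 3 they were 5 and 9, where 24.3% and 23.4% of all genes were. The falls included those of Dnmt1, the maintenance DNA methyltransferase (−0.77, SE 0.21, adjusted p = 0.011), the clamp loader gene Rfc1 (−0.56) and the helicase activator Cdc45 (−1.16), and the CDT1 inhibitor gene Gmnn rose (0.84, SE 0.27, adjusted p = 0.027). From 24 h to 8 weeks 8 of the 40 fell and 0 rose, where 10.6% of all genes fell and 10.2% rose. Without replicate 3, 7 fell and 3 rose, where 17.7% of all genes fell and 12.8% rose.

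Of 20 further genes of G1 and S control, 3 rose and 2 fell at 24 h (2 and 4 without replicate 3), and 2 rose and 5 fell at 8 weeks (3 and 7 without replicate 3). From 24 h to 8 weeks 1 rose and 4 fell (1 and 7 without replicate 3). Of all genes, 12.6% rose and 6.63% fell at 24 h, and 20.5% and 16.4% did at 8 weeks. Between 24 h and 8 weeks 10.2% rose and 10.6% fell. Without replicate 3 these shares were 16.6% and 11.8%, 24.3% and 23.4%, and 12.8% and 17.7%. Ccnd3, the remaining D-type cyclin gene, fell by 1.52 at 24 h (SE 0.36, adjusted p = 0.011) and by 1.71 at 8 weeks (SE 0.37, adjusted p = 0.0030) on the log2 scale. Tfdp2, an E2F partner, fell by 1.09 and by 2.23, and Myc fell at 8 weeks by 1.19. Rb1, the gene of the retinoblastoma protein, rose by 0.70 at 24 h (SE 0.18) and by 1.33 at 8 weeks (SE 0.18, adjusted p = 0.00013). Of 7 CDK inhibitor genes Cdkn1a, which encodes p21, rose at 24 h (1.68, SE 0.50, adjusted p = 0.032) and Cdkn1c, which encodes p57, fell (−1.76, SE 0.41, adjusted p = 0.0097), and without replicate 3 the counts were 2 and 1. At 8 weeks 1 rose and 0 fell (3 and 1 without replicate 3). Cdkn1a stood at 11.4 FPKM in 24 h replicate 3 and at 43.6 to 79.0 in the other 24 h libraries, against 7.58 to 24.7 before TAM.

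Marker lists of other cell types were read in the same fit, where 12.6% of all genes rose at 24 h and 20.5% at 8 weeks. Of 14 macrophage markers tested 11 rose at 24 h (13 without replicate 3) and 13 at 8 weeks. Their summed FPKM was 364 to 974 before TAM, 1765 to 3452 at 24 h and 3833 to 7693 at 8 weeks, with none at 0 in any library. Of 11 lymphocyte markers 2 rose at 24 h and 11 at 8 weeks, with sums of 6.97 to 20.7, 23.6 to 40.4 and 36.9 to 144 FPKM and Cd8a at 0 in before replicate 3. Of 10 capsule and fibroblast markers 6 rose at 24 h and 7 at 8 weeks, with sums of 209 to 531, 734 to 1175 and 1109 to 1890.0 FPKM, the highest at 24 h being replicate 3. Of 10 endothelial markers 2 rose at 24 h (7 without replicate 3), where their sum was 184 FPKM in replicate 3 and 560 to 841 in the others, against 371 to 416 before TAM. At 8 weeks their sum was 272 to 388 FPKM, and 1 fell against before TAM (4 without 24 h replicate 3). Of all genes 16.4% fell there (23.4%). Against 24 h 0 endothelial markers fell (10 without 24 h replicate 3), where 10.6% of all genes fell (17.7%). At 24 h 0 of 10 fat cell, 0 of 10 medulla and 0 of 5 red blood cell markers rose, and 2 of 10 cortex markers fell (2 fell and 1 rose without replicate 3). At 8 weeks, where 0 mitotic genes were called higher than before TAM, 6 of 10 cortex markers fell (9 without 24 h replicate 3). Of 10 fat cell markers 5 rose at 8 weeks (9 without 24 h replicate 3). The summed FPKM of fat cell markers was 233 to 2074 before TAM, 73.2 to 4736 at 24 h and 8326 to 17740 at 8 weeks. In 24 h replicate 3, macrophage (1.05), lymphocyte (0.77) and endothelial (−1.21) markers had the lowest mean log2 levels of the 24 h group. These means were 2.04, 1.695 and 0.53 in replicate 1, 1.93, 1.42 and 0.64 in replicate 2 and 2.03, 0.89 and 1.12 in replicate 4. In replicate 3 the macrophage sum was 1765 FPKM, and red blood cell markers summed to 15.96 FPKM with Hba-a2 and Hbb-bs at 0. The part of any of these cells in the changes of the 40 genes was not tested.

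**Figure D5:**
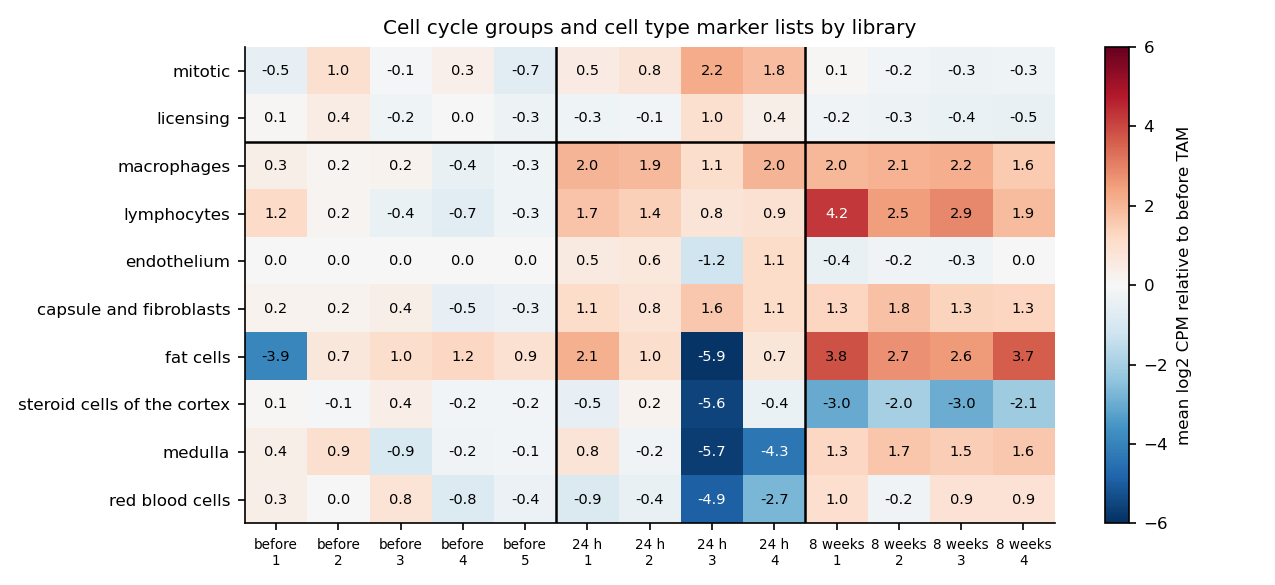
Mean log2 CPM relative to before TAM (colour and number) of the mitotic and licensing genes and of 8 cell type marker lists (rows) in each library (columns). The macrophage row is raised in all later libraries, and 24 h replicate 3 is the lowest library in the fat cell, cortex, medulla and red blood cell rows. The 24 h replicate 4 is also low for medulla (−4.32) and red blood cells (−2.75), and before replicate 1 for fat cells (−3.91).

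The series design names the comparison of 8 weeks with before TAM, for which the authors deposited their own tests. Of 45 transcripts of the 40 genes that the authors' deposited table lists, 1 was higher (Cdt1, log2 ratio 0.86) and 7 were lower at a q-value under 0.05. Of all 19655 transcripts that the authors' deposited table holds, 16.3% were higher and 21.7% lower by the same threshold. The lower ones in the authors' deposited table are transcripts of Mcm2 (log2 ratio −1.89), Mcm3 (−0.60), Mcm5 (−0.87), Mcm6 (−0.82), Mcm7 (−0.59), Ccnd1 (−1.53) and Ccnd2 (−2.15). No q-value under 0.05 stands beside any of the 22 mitotic transcripts in the authors' deposited table.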

How the data were processed

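Adrenal gland RNA of 13 libraries (5 before TAM, 4 at 24 h, 4 at 8 weeks) was analysed from tables per RefSeq transcript. Per the labels' protocols a stranded mRNA kit was used, and per the submitters' processing notes the tools were bcl2fastq 2.17 and TopHat2 2.0.14 with mm10. The authors deposited expected counts and FPKM values, named so per the file headers, and which program computed them was not given in the sources used here. A further table deposited by the authors holds log2 FPKM and log2 ratios, and beside them their p-values and q-values, for 8 weeks against before TAM. Columns of unknown sample: 0.

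The expected counts of the 18738 transcripts listed for every group were summed per gene (14078 genes) and rounded. They were fitted with edgeR 4.0.16 in R 4.3.3 (TMM scaling, quasi-likelihood test, 1 fit of 13 libraries, no block), with Benjamini-Hochberg adjustment over all genes and a threshold of 0.05. The low-count filter removed 0 genes. Group means are of log2 CPM with a prior count of 2. Alternatives were DESeq2 1.42.0, limma 3.58.1 (voom with quality weights), other scalings and filters, all listed transcripts, pairs of groups, a replicate block, and libraries left out. Code was tested on simulated counts. Listed reads, 17331673 to 27309429 per library, set the counting precision.

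Members and lists were chosen with earlier results of these data known. Named library by library were the members called (up to 6 per role and comparison, by p), the lowest p where a role had none called, and always Mki67, Top2a, Cdk1, Mcm2, Pcna, Ccnd1 and E2f1; further cycle lists gave up to 4 called genes each. Single values of Ccnb1, Bub1, Bub1b, Cdc6, Rrm1 and Cdk4 were added after they were seen.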

Additional observations from a re-analysis of the deposited data

Results flagged for a closer look

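Of 102 groups of libraries examined, among them those of 29 genes, 4 held 1 library that stood out by Dixon's criterion. Its gap to its nearest neighbour was large against the range of its group, which chance alone meets in about 1 of 20 groups. Before replicate 2 was the high library for Cdk1 (4.63 FPKM, others up to 2.16) and Foxm1 (2.60 FPKM, others up to 1.37). At 8 weeks replicate 1 was high for Mki67 (2.37 FPKM, others up to 1.33) and replicate 2 for Kif20a (1.26 FPKM, others up to 0.69).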

How the results depend on the processing

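Of 97 gene results examined (members named library by library and up to 4 called genes per further list and comparison), 26 kept their direction and side of the threshold in every alternative that gave a value. Of these 97, 88 were called, and 0 of the called ones changed direction. Alternatives with all listed transcripts, 24 h replicates 3 and 4 left out together, or before and 8 weeks alone were chosen after seeing the data. The causes of the changes were not tested, apart from the fewer libraries in some fits.

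Of the 39 genes, 20 were called at 24 h, and the count was 12 with all listed transcripts and no 24 h replicate 3, 10 with only those groups, 3 with a replicate block and 4 without 24 h replicates 3 and 4. At 8 weeks against before TAM 6 were called, and 10 in each of the fits with all listed transcripts and no replicate 3, only those groups, neither replicate 3 nor 4, and before and 8 weeks alone. At 8 weeks against 24 h 24 were called, 3 with voom, 12 with only those groups, 6 with the replicate block and 2 without replicates 3 and 4. The mitotic count at 24 h (14) was 7, 9, 6, 0 and 0 with all listed transcripts and no replicate 3, voom, only those groups, the replicate block, and neither replicate 3 nor 4. The mitotic count at 8 weeks against 24 h (18) was 1 with voom, 10 with only those groups, 5 with the replicate block and 0 without replicates 3 and 4. Licensing genes lower at 8 weeks than before TAM (1) numbered 4 with voom, 2 without scaling and 5 with all listed transcripts and no replicate 3, only those groups, neither replicate 3 nor 4, or before and 8 weeks alone. Against 24 h (4) they numbered 2 with all listed transcripts and no replicate 3, and 1 with voom, only those groups, the replicate block, or neither replicate 3 nor 4. All genes called at 24 h (2708) numbered 5377 with voom and 1312 with the replicate block. At 8 weeks against before TAM (5193) they numbered 8101 with voom and 7895 alone. Against 24 h (2924) they numbered 4387 with all listed transcripts and no replicate 3, 973 with only those groups and 1661 with the replicate block. In the shorter promoter window the CHR was in 1 licensing and the E2F core in 1 mitotic promoter.

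Leaving out 1 library at a time, genes called ran from 8 to 24 at 24 h, from 3 to 10 at 8 weeks and from 6 to 26 between them. Mitotic counts ran from 4 to 18 and from 5 to 19, licensing counts from 1 to 5 in both comparisons at 8 weeks, and all genes at 8 weeks against 24 h from 1782 to 4300. The mitotic minus licensing mean at 8 weeks ran from 0.029 to 0.31.

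Log2 values that changed sign were all uncalled. For Ccnd1 from 24 h to 8 weeks they were −0.081 with all listed transcripts and no replicate 3, −0.17 with voom, −0.33 without replicates 3 and 4, and −0.078 to 0.69 with 1 library left out. For Pcna there they were 0.075 with voom, 0.082 without replicates 3 and 4, and −0.18 to 0.020. For E2f1 they were 0.028 and 0.020 at 24 h and −0.11 and −0.10 from 24 h to 8 weeks, with all listed transcripts and no replicate 3 and without replicates 3 and 4, and at 8 weeks 0.01 with the replicate block and −0.16 to 0.027 with 1 library left out. For Mki67 at 8 weeks they were −0.013 with all listed transcripts and no replicate 3, −0.0091 with only those groups, −0.0089 without replicates 3 and 4, −0.11 without scaling, −0.10 with the replicate block, −0.042 with before and 8 weeks alone, and −0.26 to 0.28. For Cdk1 at 8 weeks they were 0.11 with voom and −0.41 to 0.16, and for Top2a −0.48 to 0.024.

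The labels do not say whether replicate numbers pair the libraries. Of 12 same-numbered pairs 2 had a correlation over 0.1 (range −0.13 to 0.28). The best partner carried the same number in 3 of 26 cases. These values showed no clear pairing but cannot exclude it, since differences in cell type markers between libraries also enter them. Without a scaling factor the median log2 value of all genes was −0.10 at 8 weeks against before TAM and −0.12 against 24 h, and 0.03 and −0.03 with it.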

Other observations

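Outside the cell cycle genes, Alb was named after its values were seen. It was at 978 FPKM in before replicate 5 and at 13280.0 FPKM in 8-week replicate 3, and at most 11.7 FPKM elsewhere. Before replicate 5 was the lowest of its group for 13 of 20 mitotic genes. The 8-week replicate 3 was so for 12 of 20, and for 5 of 8 licensing genes. Mitotic rises at 24 h (14) numbered 4 without before replicate 5, and 5, 18, 6 and 8 without before replicates 1 to 4. Mitotic falls from 24 h to 8 weeks (18) numbered 8 without 8-week replicate 3. They numbered 11, 6 and 5 without 8-week replicates 1, 2 and 4. Whether Alb marks other tissue there was not tested.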
